A study of Homo sapiens with 20 samples.

Results

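The genes of the cytosolic ribosomal proteins were examined in HCT116 cells, a human colorectal carcinoma line, after exposure to 2 fungal disulfide compounds and their analogs. A gene was taken by its symbol, RPL or RPS with a number and any of the suffixes A, X or L, the stalk genes RPLP0 to RPLP2, and RPSA. The rule found 83 genes among the 15531 listed at either time, and all 83 were listed at both times. They comprise 43 genes of the large (60S) subunit, 31 of the small (40S) subunit, 3 of the stalk, and 6 paralogs (RPL22L1, RPS27L, RPL36AL, RPL26L1, RPL7L1 and RPL3L). FAU, whose product is a fusion that releases RPS30, falls outside the symbol rule and is given separately.

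Cells received chaetocin or chetomin at 500 nM, or, at the same dose, MeS-chaetocin or MeS-chetomin, which the labels describe as sulfide-depleted analogs. Vehicle cells received 0.5% DMSO. RNA was taken at 5 h or 12 h, with 2 biological replicates in each of the 10 groups and 20 libraries of poly(A)-selected RNA in all. The labels do not say whether replicates were separate cultures, so p-values measure the spread between these samples, which may be technical.

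A ribosome is built from ribosomal RNA and a large set of ribosomal proteins, which are made in the cytoplasm and imported into the nucleus for assembly. In vertebrates most of these mRNAs begin with a C followed by a run of pyrimidines, the 5′ terminal oligopyrimidine (TOP) tract, through which mTOR signalling and LARP1 set their translation and stability. Free RPL5 and RPL11 bind MDM2 and so link ribosome assembly to p53. RPS6 is the substrate of S6 kinase, and RPS27A is made as a fusion with ubiquitin.

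RefSeq start windows (build GRCh38.p14) were matched by symbol for 67 of the 83 genes. Where a symbol had several annotated starts, the one with the longest C-led pyrimidine run was kept, for members and other genes alike. The shares below are therefore for the best start of each gene. At the annotated start, 47 of the 67 (70.1%) had a C followed by at least 4 C or T on the sense strand, against 6.75% of the 10585 starts of other listed genes. The stretch was present at 25 of 35 starts of 60S genes, 18 of 24 of 40S genes and 3 of 3 of stalk genes, and at 1 of 5 paralog starts. Where it could begin up to 10 bases either side of the start, 86.6% of the 67 had it, against 35.2% of the others. The windows below show 10 bases before and 20 from the start for paralogs with their canonical partners, and for RPLP2, RPL9 and RPS25, whose values changed after treatment. Capitals mark the unbroken C and T run where the annotated start is a C.
RPL22, chr1:6199576-6199605, minus strand: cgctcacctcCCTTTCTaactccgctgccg
RPL22L1, chr3:170870176-170870205, minus strand: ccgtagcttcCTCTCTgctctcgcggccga
RPL26, chr17:8383174-8383203, minus strand: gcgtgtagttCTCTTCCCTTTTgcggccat
RPL26L1, chr5:172958719-172958748, plus strand: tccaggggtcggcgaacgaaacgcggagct
RPS27, chr1:153990752-153990781, plus strand: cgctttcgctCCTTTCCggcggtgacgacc
RPS27L, chr15:63157458-63157487, minus strand: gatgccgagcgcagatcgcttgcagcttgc
RPL36A, chrX:101391001-101391030, plus strand: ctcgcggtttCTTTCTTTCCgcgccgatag
RPL36AL, chr14:49620607-49620636, minus strand: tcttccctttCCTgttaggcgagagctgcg
RPL7L1, chr6:42879606-42879635, plus strand: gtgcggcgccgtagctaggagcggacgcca
RPLP2, chr11:809957-809986, plus strand: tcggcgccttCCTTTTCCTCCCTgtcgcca
RPL9, chr4:39458903-39458932, minus strand: taatgacgacagacgttctttctttgctgc
RPS25, chr11:119018324-119018353, minus strand: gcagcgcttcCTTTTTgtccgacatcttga
RPL22 and RPL22L1 both carry the run, whereas RPL26L1, RPS27L and RPL7L1 have none at the annotated start and RPL36AL has 3 bases of it. RPL9 has a run a few bases downstream of the annotated start, and a missing match says only that these letters are not at that position.

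The deposited values are scaled to transcript length and library, and their sums differ between libraries, from 875371 to 1170802. The 83 genes held between 19.7% and 27.9% of the summed values of a library. At the low end stood MeS-chetomin at 12 h, replicate 2, and at the high end MeS-chaetocin at 5 h, replicate 1. In vehicle cells at 12 h, 77 of the 83 averaged at least 500 on this scale. RPL41, a short basic 60S protein, was the highest member in vehicle, with means of 10934 at 5 h and 6955 at 12 h, and RPS2 and RPS18 followed at both times. The 6 paralogs were the 6 lowest members in vehicle cells at 12 h, and RPL22 (684) came next above RPL22L1 (383.0) and RPL36AL (382.7). RPL3L, the striated-muscle paralog of RPL3, was near 0 in vehicle, and no other member fell below 30.7 in any library. The epithelial keratins KRT8 and KRT18 were high in every library (KRT8, 1474 to 2848 over 20 libraries). Of the other colorectal markers EPCAM ran from 156 to 371, KRT19 from 436 to 1037, CDH1 from 6.55 to 20.9 and CDX2 from 2.4 to 17.0. KRT20 stayed at 0.87 or less, and VIL1 and CEACAM5 were not listed. Among 14 markers of other cell types, those not listed included PTPRC, CD3E, LYZ, COL3A1, HBB and GFAP. The 7 that were listed were CD68, COL1A1, ACTA2, PECAM1, VWF, ALB and SYP. They summed to 26.8 to 31.2 in chaetocin and chetomin cells at 12 h, against 12.3 and 15.1 in vehicle cells. Of these 7, 6 were called higher with chaetocin and 5 with chetomin by the test described next. Of all genes, 20.2% and 15.6% were called higher. The part of these markers in the results was not tested.

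A difference was tested with limma on log2(value + 1), 2 libraries against 2, with Benjamini-Hochberg adjustment over all genes of the comparison, and called at an adjusted p under 0.05. A fold on this scale is understated for low genes. The shift of the ribosomal protein genes is the median log2 difference of the 83 minus the median of all genes, which itself lay between -0.16 and 0.11 in the comparisons with vehicle. In bulk RNA, fewer cells of a type and less RNA per cell cannot be told apart, and the values carry no measure of the total RNA of a cell.

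At 12 h the ribosomal protein genes lay above the median gene with both disulfide compounds. Relative to the mean of vehicle, the shift was 0.40 and 0.33 in the 2 chaetocin libraries, 0.40 and 0.67 in the 2 chetomin libraries, 0.14 and 0.00 with MeS-chaetocin, -0.10 and -0.11 with MeS-chetomin, and -0.05 and 0.05 in the vehicle libraries themselves. All 4 libraries of the disulfide compounds lay above both vehicle libraries and above all 4 libraries of the MeS compounds. The shift in the comparison with vehicle was 0.37 for chaetocin and 0.55 for chetomin, and 81 of the 83 genes lay above the median gene in each. The median difference of all genes was -0.16 with chaetocin and -0.15 with chetomin, and that of the members 0.21 and 0.40. Part of each shift was thus the lower median gene. The members held 21.8% and 21.6% of the summed values with chaetocin and 22.3% and 23.6% with chetomin, against 20.1% and 21.4% in vehicle cells. MeS-chaetocin libraries held 21.7% and 20.1%, overlapping with chaetocin, and MeS-chetomin libraries 19.9% and 19.7%. Genes of the mitochondrial genome held 8.5% and 11.3% with chaetocin, against 3.75% and 6.94% with MeS-chaetocin. With those genes left out of the sum, the members held 23.9% and 24.3% with chaetocin and 22.5% and 21.6% with MeS-chaetocin. Vehicle cells then held 21.9% and 22.7%. The overlap with chaetocin was thus seen only with the mitochondrial genes in the sum.

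**Figure D1:**
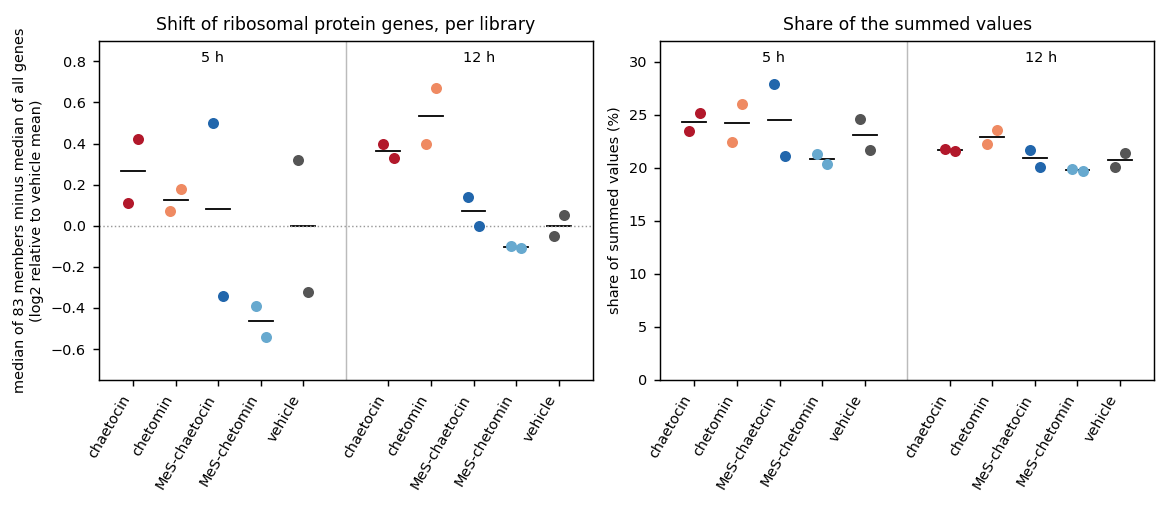
Left: shift of the 83 ribosomal protein genes in each library, the median log2 difference of the 83 from the vehicle mean of that time minus the same median over all genes; right: their percent share of the summed values. Each point is 1 of 2 libraries per group and the bar is their mean; at 12 h the chaetocin and chetomin libraries sit between 0.33 and 0.67, while at 5 h the vehicle libraries alone span -0.32 to 0.32.

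Fewer single genes passed the test. With chaetocin at 12 h, 12 of the 83 genes were called higher and 1 lower, against 20.2% of all 15377 genes tested called higher and 26.8% called lower; the share of members called higher was 14.5%. That order turned with the scaling: centring each library on its median gene called 42 members higher (50.6%) and 1 lower, where 30.5% of all genes were called higher, and median-of-ratios scaling called 33 higher (39.8%) and 1 lower, where 24.8% of all genes were. Chetomin at 12 h called 13 members higher and 1 lower, against 15.6% higher and 20.2% lower of 15381 genes. With centring on the median gene it called 30 higher (36.1%) and 0 lower, where 27.3% of all genes were called higher. With median-of-ratios scaling it called 16 higher (19.3%) and 0 lower, where 19.6% of all genes were called higher. An excess of members called higher with chetomin thus rested on the scaling. Both libraries of the compound lay above both vehicle libraries for 50 of 83 genes (60.2%) with chaetocin, where 30.3% of all genes did, and for 63 of 83 (75.9%) with chetomin, where 28.2% did. They lay below both for 2 members with chaetocin, where 44.8% of all genes did, and for 1 with chetomin, where 43.3% did. In all, 8 genes were called higher with both compounds, which is 66.7% of the chaetocin list and 61.5% of the chetomin list. The comparisons share the vehicle libraries. The same overlap over all genes was not worked out, so these shares are not read as a trait of the members. With 1 library left out the shift ran from 0.27 to 0.45 with chaetocin and from 0.40 to 0.67 with chetomin. The members called rested on the library left out, and most calls were lost without either library of the compound. The share of all genes called in those fits is not given. In the authors' deposited table, 67 members at q under 0.05 were higher and 1 lower with chaetocin at 12 h, where 35.1% of all genes were higher, and 76 were higher and 1 lower with chetomin, where 31.7% were.

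**Figure D2:**
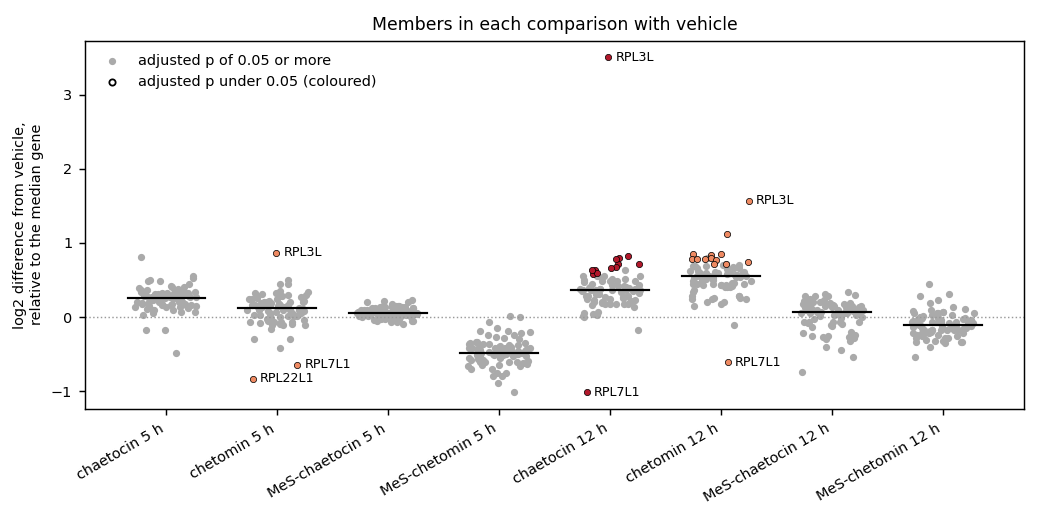
Log2 difference from vehicle of each of the 83 genes, relative to the median gene, in 8 comparisons; coloured points have a limma adjusted p under 0.05 over all genes and bars are medians. The bulk of the genes sits above 0 with chaetocin and chetomin at 12 h, with RPL3L far above and RPL7L1 below the rest.

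Among the large-subunit genes, 6 of 43 were called higher with chaetocin and 6 of 43 with chetomin at 12 h. Of all genes tested, 20.2% and 15.6% were called higher. RPL9, a 60S protein, was at 1565 and 1772 with chaetocin, 1853 and 2313 with chetomin, 656 and 820.1 with MeS-chaetocin, 1269 and 1371 with MeS-chetomin, and 1304 and 850.4 in vehicle cells. The disulfide compounds gave higher values than every other library of that time, and the vehicle libraries were themselves far apart. RPL9 rose by 0.66 ± 0.22 (log2, SE) with chaetocin (limma adjusted p = 0.046) and by 0.97 ± 0.24 with chetomin (adjusted p = 0.0157). RPL27 was at 3252 and 3255 with chaetocin and 3169.8 and 4028 with chetomin, against 2434 and 1998 in vehicle cells, without overlap (0.56 ± 0.15, limma adjusted p = 0.025, and 0.70 ± 0.21, adjusted p = 0.0344). RPL6 was at 2023 and 2025 with chaetocin and 2099 and 2433 with chetomin, against 1531 and 1384 in vehicle cells, and was called with both. RPL10, which closes the maturation of the 60S subunit, was called with chaetocin (0.48 ± 0.14, limma adjusted p = 0.0295), as was RPL38. RPL24, RPL21 and RPL35A were called with chetomin. RPL24, a late-joining 60S protein, was at 2020.2 and 2473 with chetomin, against 1526 and 1234 in vehicle cells (0.70 ± 0.20, adjusted p = 0.0269).

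RPL5 and RPL11 bind MDM2 together with 5S ribosomal RNA. RPL5 was at 1505 and 1518 with chaetocin at 12 h, against 1327 and 1276 in vehicle cells. RPL11 was at 2172 and 2118 with chaetocin, against 1851 and 1877 in vehicle cells. Both genes had no overlap between chaetocin and vehicle, yet neither passed the limma test (adjusted p = 0.196 for RPL5 and 0.232 for RPL11). With chetomin RPL5 was at 1666 and 1889 and RPL11 at 2329 and 2535, again above both vehicle libraries and not called (adjusted p = 0.0752 and 0.12). RPL23 and RPL26, further ribosomal proteins that bind MDM2 or act on p53 mRNA, differed by 0.51 ± 0.19 and 0.47 ± 0.20 with chetomin (adjusted p = 0.0701 and 0.10). RPL41 was at 7995 and 7892 with chaetocin and 7418 and 9761 with chetomin, against 6344 and 7565 in vehicle cells, where the chetomin and vehicle libraries overlapped. RPL4 was at 2279 and 2249 with chaetocin and 2612 and 2663 with chetomin, against 2635 and 2411 in vehicle cells. Its chaetocin libraries lay below both vehicle libraries and its chetomin libraries overlapped with them, and neither was called (-0.15, 95% interval -0.48 to 0.17, and 0.07, -0.35 to 0.48, on the log2 scale).

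Of the 31 small-subunit genes, 3 were called higher with chaetocin and 5 with chetomin at 12 h, and none lower. Over all genes tested, 20.2% and 15.6% were called higher and 26.8% and 20.2% lower. RPS25, needed for initiation on viral internal entry sites, was at 1315 and 1308 with chaetocin and 1253 and 1528 with chetomin, against 929 and 846 in vehicle cells. The groups did not overlap and the gene rose by 0.57 ± 0.13 (limma adjusted p = 0.0131) and 0.64 ± 0.18 (adjusted p = 0.0254). RPS20 was called with both compounds as well (limma adjusted p = 0.0377 and 0.0478). RPS14, whose loss underlies the anaemia of the 5q- syndrome, and RPS7 were called with chetomin. RPS14 stood at 3105 and 3887 with chetomin, against 2090.4 and 2416 in vehicle cells (0.63 ± 0.20, adjusted p = 0.0429). For RPS19, the gene most often mutated in Diamond-Blackfan anaemia, the values were 3130.4 and 2981 with chaetocin and 3337 and 3652 with chetomin, against 2439 and 3337 in vehicle cells. Chaetocin overlapped with vehicle, the lower chetomin library just exceeded the higher vehicle library, and neither was called (limma adjusted p = 0.685 and 0.316). RPS6 was at 2356 and 2327 with chaetocin and 2525 and 2989 with chetomin, against 1911 and 1961 in vehicle, above both vehicle libraries and not called (limma adjusted p = 0.122 and 0.0645). RPS4X, the X-linked copy, stood at 1475 and 1375 with chaetocin and 1405 and 1472 with chetomin, against 1326 and 1289 in vehicle cells, without overlap and not called (limma adjusted p = 0.457 and 0.539). RPSA, the laminin-receptor protein of the small subunit, was at 2788 and 2653 with chaetocin and 2864 and 3280.2 with chetomin, against 2187 and 2628 in vehicle cells, and RPS27A at 1551 and 1448 with chaetocin and 1625 and 1967 with chetomin, against 1321 and 1655 in vehicle cells. RPSA did not overlap and RPS27A did, and neither was called.

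Of the stalk genes RPLP2, which recruits translation factors together with RPLP1, was called with chaetocin at 12 h. It was at 2206 and 1872 with chaetocin, 1754 and 2037 with chetomin, 1883 and 1409 with MeS-chaetocin, 1097 and 1041 with MeS-chetomin, and 1137 and 1537 in vehicle cells. Chaetocin cells stood above both vehicle libraries (0.62 ± 0.19, limma adjusted p = 0.0346), while MeS-chaetocin replicate 1 reached the chaetocin values. RPLP0, the stalk base, was at 3963 and 3820 with chaetocin and 4448 and 4777 with chetomin, against 3390.0 and 4344 in vehicle cells. Only its chetomin libraries lay above both vehicle libraries, and neither difference passed the test (0.02, 95% interval -0.39 to 0.43, and 0.26, -0.22 to 0.75, on the log2 scale). RPLP1 overlapped with vehicle for both compounds.

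**Figure D3:**
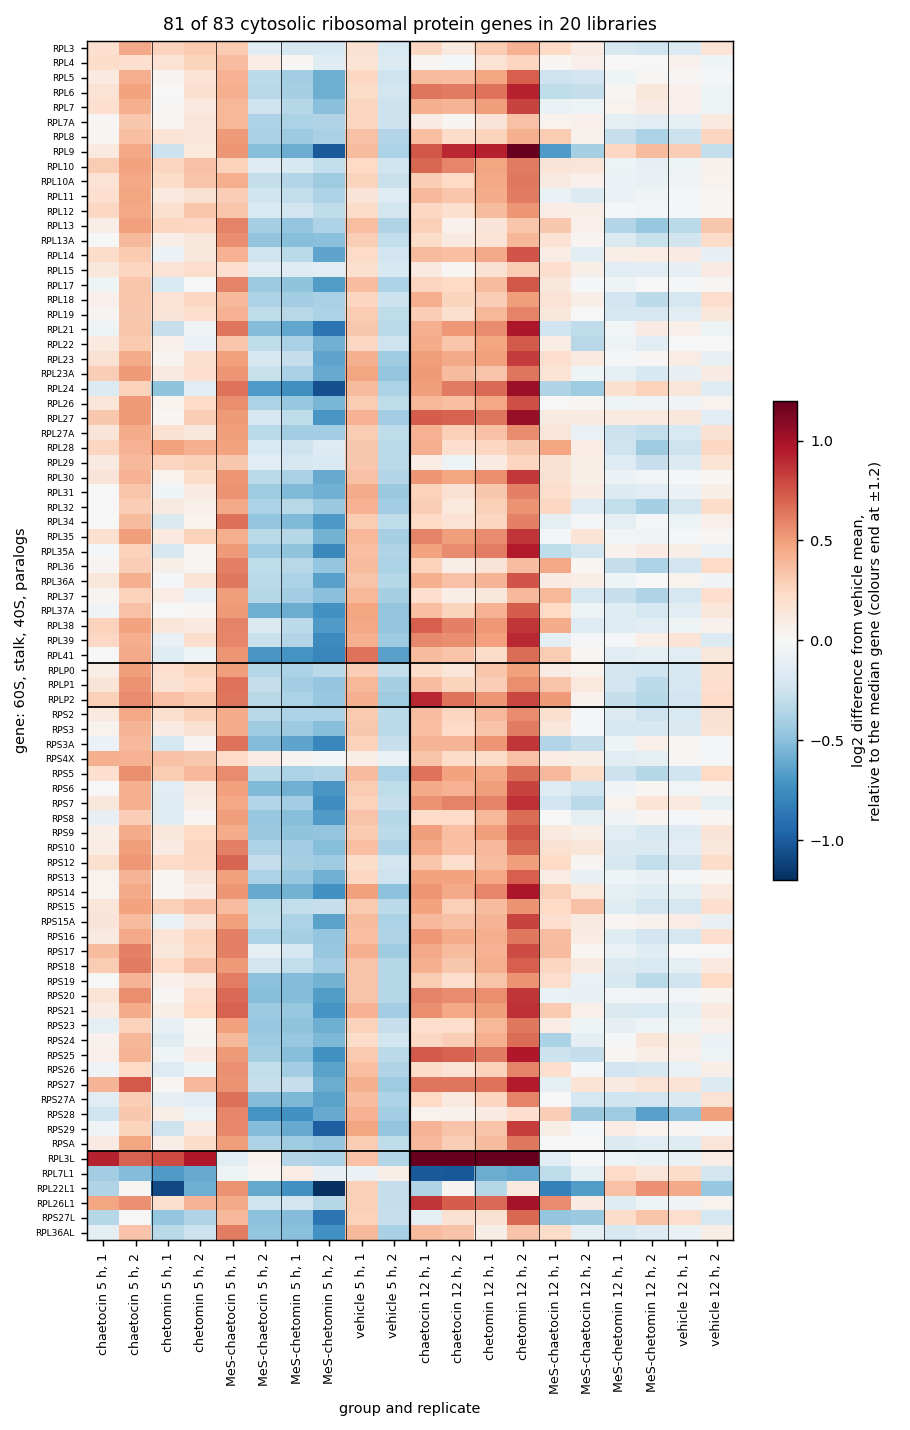
Each of 81 of the 83 genes (down the page: 60S, stalk, 40S, paralogs) in each of the 20 libraries (across), as log2 difference from the vehicle mean of the same time relative to the median gene of the library; colours end at 1.2 either way. Most genes move together within a library, as in MeS-chaetocin at 5 h replicate 1 (shift 0.50) and replicate 2 (shift -0.34), and the paralogs RPL3L, RPL7L1 and RPL22L1 depart from that pattern.

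At 5 h the vehicle libraries and the MeS-chaetocin libraries each lay far apart. The shift was 0.11 and 0.42 with chaetocin, 0.07 and 0.18 with chetomin, 0.50 and -0.34 with MeS-chaetocin, -0.39 and -0.54 with MeS-chetomin, and 0.32 and -0.32 in vehicle. Vehicle replicate 1 and MeS-chaetocin replicate 1 were both high, and RPL41 was at 15095 and 6774 in the vehicle libraries and at 13750.5 and 6582 in the MeS-chaetocin libraries. Limma called no member with chaetocin, where 4.56% of 14217 genes were called higher and 6.53% lower, and 2 members (2.41%) had an unadjusted p under 0.05, where 27.5% of all genes had. Both chaetocin libraries lay above both vehicle libraries for 10 members, where 20.5% of all genes did, and below both for 1, where 34.5% did. Chetomin at 5 h called 1 member higher and 2 lower, all paralogs, where 7.02% of 14219 genes were called higher and 8.71% lower. With each library centred on its median gene, 1 was called higher and 0 lower. Both chetomin libraries lay above both vehicle libraries for 6 members, where 23.5% of all genes did, and below both for 4, where 35.5% did. The shift against vehicle was 0.26 for chaetocin and 0.12 for chetomin. Without vehicle replicate 2 it was -0.05 and -0.20, and without vehicle replicate 1 it was 0.56 and 0.45, so its sign rested on the vehicle library used.

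With MeS-chetomin at 5 h the shift was -0.48, and 82 of 83 genes lay below the median gene. Both MeS-chetomin libraries lay below both vehicle libraries for 49 of 83 genes (59.0%), where 16.2% of 14184 genes did, and above both for 1, where 37.2% did. Limma called no member, where 0.0776% of all genes were called higher and 0.0635% lower, with 6 members (7.23%) at an unadjusted p under 0.05, where 16.1% of all genes were. RPL24 stood at 1856 and 1507 with MeS-chetomin, against 3564 and 2333 in vehicle cells, and its adjusted p was 0.276. Without vehicle replicate 1 the shift was -0.15, and without replicate 2 it was -0.80. MeS-chaetocin at 5 h had a shift of 0.06, which was -0.34 and 0.51 without its own replicate 1 and 2, and no member or other gene of the 14178 was called by limma, while 105 genes and no member had an unadjusted p under 0.05. Its libraries lay above both vehicle libraries for 2 members, where 7.24% of all genes did, and below both for 0, where 6.21% did.

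With the MeS compounds at 12 h no gene at all was called by limma (0 of 15215 and 0 of 15197), and no member had an unadjusted p under 0.05, while 756 and 416 genes did. The shift was 0.07 with MeS-chaetocin and -0.11 with MeS-chetomin. Both MeS-chaetocin libraries lay above both vehicle libraries for 20 of 83 genes, where 22.5% of all genes did, and below both for 15, where 15.0% did. Both MeS-chetomin libraries lay below both vehicle libraries for 37 of 83 genes (44.6%), where 15.7% of all genes did, and above both for 3, where 17.8% did.

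The compounds were also set directly against each other at the same dose and time, each disulfide compound against its sulfide-depleted analog and chaetocin against chetomin within each kind, which made 4 pairs per time. At 12 h chetomin against MeS-chetomin had the most members called of the comparisons made. Here 59 of 83 genes were called higher and 1 lower by limma, 71.1% of the members, against 18.8% higher and 28.6% lower among 15381 genes, with a shift of 0.68. Both chetomin libraries lay above both MeS-chetomin libraries for 80 of 83 genes (96.4%), where 31.8% of all genes did, and below both for 2, where 49.5% did. By class, 28 of 43 genes of the 60S subunit, 26 of 31 of the 40S subunit and 3 of 3 of the stalk were called higher. RPLP2 stood at 1754 and 2037 with chetomin, against 1097 and 1041 with MeS-chetomin (0.82 ± 0.17, adjusted p = 0.00726), a call lost without either chetomin library or MeS-chetomin replicate 2. RPS14 was at 3105 and 3887 with chetomin, against 2110 and 2038 with MeS-chetomin (0.74 ± 0.16, adjusted p = 0.00772), and RPS6, RPSA, RPL3, RPL5, RPL10, RPL11, RPL23, RPL26, RPS3, RPS7, RPS19 and RPS27A were called higher too. RPL4, RPS4X, RPL13A and RPL41 were not. With 1 library left out the shift ran from 0.54 to 0.80. The members called rested on the library left out, and most calls were lost without chetomin replicate 2 or either MeS-chetomin library.

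Chaetocin against MeS-chaetocin at 12 h called 14 members higher and 1 lower, against 22.2% higher and 31.6% lower of 15380 genes, with a shift of 0.28. Both chaetocin libraries lay above both MeS-chaetocin libraries for 41 members, where 33.0% of all genes did, and below both for 10, where 48.0% did. With 1 library left out the shift ran from 0.19 to 0.35, and fewer members were called without either chaetocin library or MeS-chaetocin replicate 2. RPL9 was at 1565 and 1772 with chaetocin, against 656 and 820.1 with MeS-chaetocin (1.18 ± 0.22, limma adjusted p = 0.00399), a call lost without either chaetocin library. RPS25 stood at 1315 and 1308 with chaetocin, against 739 and 747 with MeS-chaetocin (0.82 ± 0.11, adjusted p = 0.000984). The 14 higher genes were RPS20, RPL6, RPL24, RPS25, RPL21, RPL5, RPL27, RPS6, RPL3L, RPS3A, RPL9, RPS7, RPL35A and RPL39. For all of them but RPL27, both MeS-chaetocin libraries lay below the vehicle mean, relative to the median gene. RPL9 was at -0.68 and -0.40 there and RPS25 at -0.26 and -0.29, while RPL27 was at 0.10 and 0.11. Part of those differences was thus the lower analog. RPLP0, in contrast, was at 3963 and 3820 with chaetocin and at 4101 and 4054 with MeS-chaetocin, and its difference of -0.07 had an interval of -0.44 to 0.31.

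Between the 2 disulfide compounds at 12 h, 1 member was called, RPL3L, against 3.4% of 15381 genes called higher and 1.27% lower by limma. The shift was -0.16, and -0.31 and -0.03 without chetomin replicate 1 and 2, and both chaetocin libraries lay below both chetomin libraries for 54 of 83 genes (65.1%), where 30.5% of all genes did, and above both for 2, where 26.6% did. For RPS6 the difference of -0.23 had a 95% interval of -0.55 to 0.09. Between the 2 MeS compounds at 12 h no member was called by limma (0.00656% of 15251 genes were called higher), 30 members (36.1%) had an unadjusted p under 0.05, where 27.2% of all genes had, and the shift was 0.20. Both MeS-chaetocin libraries lay above both MeS-chetomin libraries for 54 members, where 33.8% of all genes did, and below both for 17, where 31.3% did.

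At 5 h, chaetocin against chetomin had a shift of 0.15 and no member called by limma, where 0.127% of 14220 genes were called higher and 0.64% lower, with 1 member (1.2%) at an unadjusted p under 0.05, where 12.6% of all genes were. Chaetocin lay above chetomin without overlap for 24 members, where 20.9% of all genes did, and below for 1, where 26.3% did. Chaetocin against MeS-chaetocin had a shift of 0.18 and no member called by limma, where 3.11% of 14221 genes were called higher and 3.45% lower, with 2 members (2.41%) at an unadjusted p under 0.05, where 22.6% of all genes were. The sign of this shift rested on 1 library, at 0.63 without MeS-chaetocin replicate 1 and -0.22 without replicate 2. Chaetocin lay above MeS-chaetocin without overlap for 6 members, where 17.5% of all genes did, and below for 2, where 30.7% did.

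Chetomin against MeS-chetomin at 5 h had a shift of 0.60. Limma called RPL3L higher and RPL7L1 lower, where 8.97% of 14222 genes were called higher and 23.9% lower. With each library centred on its median gene, 13 members were called higher and 0 lower, where 26.6% of all genes were called higher. The RPL7L1 call was lost with that centring and without chetomin replicate 1. With 1 library left out the shift ran from 0.53 to 0.66, and many more members were called without either vehicle library. Both chetomin libraries lay above both MeS-chetomin libraries for 79 members, where 24.4% of all genes did, and below both for 1, where 50.8% did. MeS-chaetocin against MeS-chetomin had a shift of 0.55, which was 0.12 without MeS-chaetocin replicate 1 and 1.00 without replicate 2, with no gene called by limma, and 554 genes but no member at an unadjusted p under 0.05. MeS-chaetocin lay above MeS-chetomin without overlap for 57 members, where 14.0% of all genes did, and below for 0, where 29.7% did.

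Each compound's effect was also compared between 12 h and 5 h in a fit with both vehicle groups. The shift of the 83 genes in this difference was 0.13 for chaetocin, 0.49 for chetomin, -0.01 for MeS-chaetocin and 0.34 for MeS-chetomin. One member passed limma, RPL3L with chaetocin, where 3.43% of 14072 genes were called higher and 0.895% lower. None passed with chetomin, where 0.327% of genes were called higher and 0.171% lower, or with the MeS compounds, where no gene passed. The number of members with an unadjusted p under 0.05 was 2 (2.41%) for chaetocin, where 21.3% of all genes had one, and 9 (10.8%) for chetomin, where 20.5% had. It was 0 for MeS-chaetocin, where 1.11% of all genes had one, and 6 (7.23%) for MeS-chetomin, where 10.5% had. Without vehicle replicate 1 at 5 h the shift in this difference was -0.21 for chaetocin, 0.12 for chetomin and 0.03 for MeS-chetomin, and without replicate 2 it was 0.46, 0.79 and 0.65. That of MeS-chaetocin was 0.42 without its replicate 1 at 5 h and -0.41 without its replicate 2. The values of 5 h and 12 h may have been normalized separately, so each effect was taken against the vehicle of its own time.

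The 6 paralogs ran from -1.01 to 3.50 relative to the median gene with chaetocin at 12 h, against 0.00 to 0.82 for the 60S genes and 0.04 to 0.72 for the 40S genes. RPL3L (chr16:1943974-1957606, minus strand, GRCh38, a protein-coding gene with 11 merged exons) was at 1.21 and 0.80 with chaetocin at 5 h, and at 0.97 and 1.23 with chetomin, against 0.47 and a listed 0 in vehicle cells. At 12 h it was at 10.99 and 10.07 with chaetocin and at 2.46 and 1.67 with chetomin, against 0.07 and 0.20 in vehicle cells, while the MeS libraries stayed between 0.04 and 0.15. The disulfide libraries did not overlap any other library at either time. On the log2(value + 1) scale it rose by 3.35 ± 0.20 with chaetocin (limma adjusted p = 0.000417) and by 1.42 ± 0.18 with chetomin (adjusted p = 0.00104) at 12 h, and by 0.79 ± 0.21 with chetomin at 5 h (adjusted p = 0.0389). The 5 h call was lost with a pseudocount of 0.1, without either chetomin library and without vehicle replicate 2. The chaetocin difference at 5 h, 0.72 ± 0.22, did not pass (adjusted p = 0.0854). Chaetocin exceeded chetomin at 12 h by 1.92 ± 0.21 (adjusted p = 0.00285), a difference that no longer passed without chetomin replicate 2, and the chaetocin effect was larger at 12 h than at 5 h by 2.63 ± 0.31 (adjusted p = 0.00202).

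RPL3, with which RPL3L may share reads, was at 2508 and 2307 with chaetocin at 12 h, against 2141 and 2651 in vehicle cells, and so overlapped. The listed genes beside RPL3L, chosen after its values were seen, were MSRB1, 648 bases away on the same strand, and NDUFB10, 1902 bases away on the other strand. MSRB1 was at 29.7 and 32.9 with chaetocin, against 26.7 and 28.9 in vehicle cells (0.16 ± 0.15, limma adjusted p = 0.416), and NDUFB10 was not called either (adjusted p = 0.474). Further off, the small nucleolar RNA host gene SNHG9 was at 293 and 267 with chaetocin and 183 and 215 with chetomin, against 85.4 and 119 in vehicle cells (adjusted p = 0.00172 and 0.00749).

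RPL7L1 (chr6:42879618-42889925, plus strand), a relative of RPL7 with a role in 60S assembly, fell. At 12 h it was at 30.7 and 30.9 with chaetocin and 42.6 and 40.1 with chetomin, against 82.8 and 60.2 in vehicle cells. MeS-chaetocin cells had 56.9 and 67.01 and MeS-chetomin cells 84.3 and 78.5, so the disulfide libraries were the 4 lowest of that time. The difference was -1.17 ± 0.18 with chaetocin (limma adjusted p = 0.00382) and -0.76 ± 0.20 with chetomin (adjusted p = 0.019). Centring each library on its median gene left chetomin at -0.43 (adjusted p = 0.112), and its call was also lost with median-of-ratios scaling and without either chetomin library; the chaetocin call was lost without either chaetocin library. At 5 h the chetomin libraries, 55.9 and 59.0, lay below the vehicle libraries, 86.2 and 105 (-0.72 ± 0.16, adjusted p = 0.0253), and the chaetocin libraries, 68.0 and 59.8, did too without passing (adjusted p = 0.081). The chetomin call at 5 h was lost with centring on the median gene and without either chetomin library. RPL7 was at 5333 and 5362 with chaetocin and 5824 and 6931 with chetomin at 12 h, against 4711 and 4244 in vehicle cells.

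RPL22L1 is the paralog whose level RPL22 represses in mouse. With chetomin at 5 h it was at 405 and 574, against 1057 and 783 in vehicle cells (-0.91 ± 0.24, limma adjusted p = 0.0398), but MeS-chetomin libraries were at 589 and 404 as well (-0.90 ± 0.24, adjusted p = 0.266). The chetomin call was lost with both other scalings, with a spread shared by all libraries of the time, without either chetomin library and without vehicle replicate 1. At 12 h vehicle cells had 502 and 264 and the 8 compound libraries ran from 207 to 533, and neither chaetocin nor chetomin was called (limma adjusted p = 0.416 and 0.497). RPL22 was at 829 and 779.6 with chaetocin and 877 and 1005 with chetomin, against 686 and 683 in vehicle cells, without overlap and not called (adjusted p = 0.159 and 0.0597). RPL26L1 was at 206 and 191 with chaetocin and 189 and 225 with chetomin at 12 h, against 125 and 130.5 in vehicle cells (0.63 ± 0.12, adjusted p = 0.00802, and 0.69 ± 0.16, adjusted p = 0.013). MeS-chaetocin replicate 1 also had 189.7 of RPL26L1. RPS27L, a p53-induced relative of RPS27, was at 79.1 and 98.2 with chaetocin and 101 and 137 with chetomin, against 112 and 82.1 in vehicle cells, and overlapped. RPL36AL was at 443 and 438 with chaetocin and 369.8 and 428 with chetomin, against 365 and 400.2 in vehicle cells, and its chaetocin libraries lay above both vehicle libraries. Neither gene was called.

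**Figure D4:**
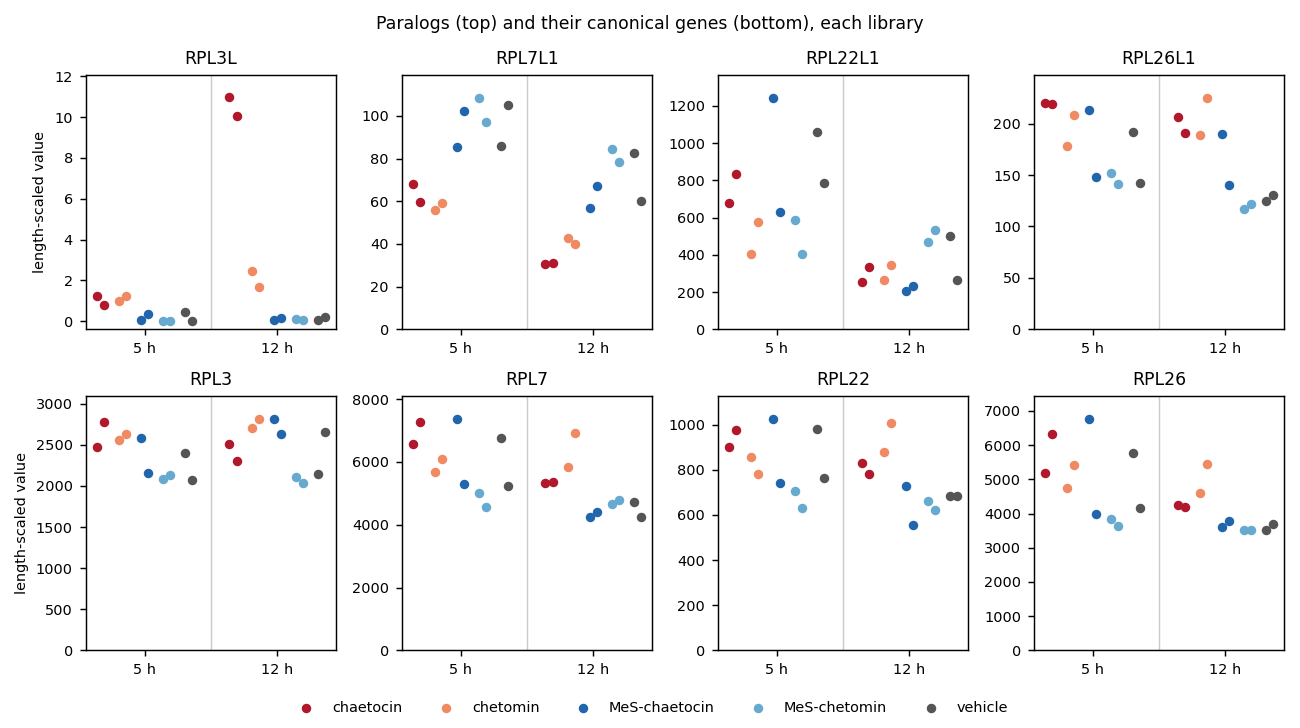
Length-scaled value of 4 paralogs (top) and their canonical genes (bottom) in every library at 5 h and 12 h, 2 points per group, linear axes from near 0. RPL3L reaches 10.99 with chaetocin at 12 h while RPL3 overlaps between chaetocin and vehicle, and RPL7L1 falls to between 30.7 and 42.6 with the disulfide compounds, opposite to RPL7.

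The vehicle libraries at 12 h differed from each other in a pattern that touches these results. Replicate 1 exceeded replicate 2 for RPL22L1 (log2 0.92) and RPL9 (0.62) and lay below it for RPL13 (-0.62) and RPS28 (-0.96). RPL13 was at 3693 in replicate 1 and 5685 in replicate 2, and RPS28 at 602 and 1170. Across 82 members the difference fell with the GC content of their transcripts (Pearson r -0.65, Spearman rho -0.66), and across 9043 genes likewise (r -0.73, rho -0.76). At 5 h, replicate 1 was higher for 81 of 82 members, with a median of 0.51 and no such relation among members (r 0.07), while across 8282 genes the difference rose with GC (r 0.37, rho 0.38). These are descriptions across genes of 1 pair of libraries and carry no test. The differences from vehicle also ran with GC over the members in some comparisons, but little with chaetocin or chetomin at 12 h. At 5 h r was 0.33 for chaetocin, 0.64 for chetomin, 0.16 for MeS-chaetocin and 0.44 for MeS-chetomin, and at 12 h 0.10, -0.08, 0.62 and -0.61. With log2 transcript length, r at 5 h was -0.46 for chaetocin, -0.22 for chetomin, -0.25 for MeS-chaetocin and 0.33 for MeS-chetomin. At 12 h it was -0.57 for chaetocin (rho -0.36), -0.50 for chetomin (rho -0.28), -0.18 for MeS-chaetocin and 0.02 for MeS-chetomin. The members' median transcript was 687 bases long, against 1858.5 over all genes. The part of GC and length in the results was not tested.

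**Figure D5:**
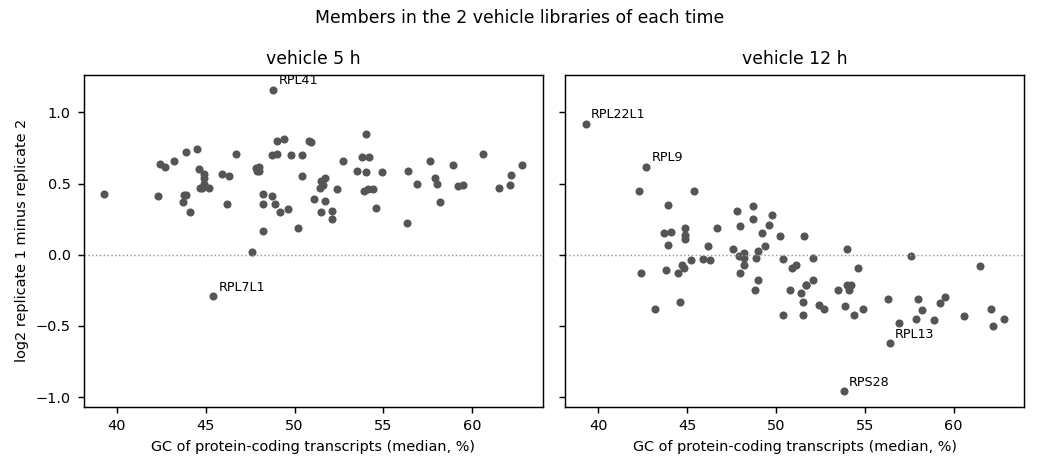
Log2 difference between vehicle replicate 1 and replicate 2 for each of 82 members, against the median GC percent of their protein-coding transcripts, at 5 h and 12 h. At 12 h RPL22L1 and RPL9 lie high and RPL13 and RPS28 low; at 5 h nearly all members lie above 0.

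Genes with and without the start motif were also set side by side. At 12 h the 46 canonical genes with the C-led run at the start had a median difference relative to the median gene of 0.36 with chaetocin and 0.55 with chetomin, and the 16 without it 0.26 and 0.48, with no test. Of 29 other TOP or translation genes, 8 were called higher and 3 lower with chaetocin at 12 h and 8 and 1 with chetomin, with medians of 0.31 and 0.51 relative to the median gene. The shares called higher, 27.6% with each, stand beside 20.2% of all genes with chaetocin and 15.6% with chetomin, and those called lower, 10.3% and 3.45%, beside 26.8% and 20.2%. TPT1, a classical TOP mRNA, was at 3473 and 3815 with chaetocin and 3938 and 4675 with chetomin, against 2431 and 1924 in vehicle cells (limma adjusted p = 0.0124 and 0.009). SNHG8, a small nucleolar RNA host gene, was at 387 and 342 with chaetocin and 305 and 387 with chetomin, against 171 and 184 in vehicle cells (adjusted p = 0.00181 and 0.00477). VIM, which encodes vimentin, was low but called higher with both, at 3.81 and 2.95 with chaetocin and 3.04 and 2.71 with chetomin, against 0.70 and 0.52 in vehicle cells. SNHG1, another such host gene, was called higher with chaetocin (0.81 ± 0.15, limma adjusted p = 0.00735). EIF4A2, a helicase of translation initiation, was at 92.7 and 100.1 with chaetocin and 108 and 114 with chetomin, against 215 and 167 in vehicle cells, and was called lower with both at both times. The fusion gene FAU was called with chaetocin at 12 h, at 1820.2 and 1641 with chaetocin, against 856 and 1206 in vehicle cells (0.77 ± 0.19, adjusted p = 0.0182).

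The mitochondrial ribosomal proteins are made from nuclear genes and build a separate ribosome. Their 81 genes had a median of -0.17 relative to the median gene with chaetocin at 12 h, with 5 called higher and 31 lower, and 0.08 with chetomin, with 6 higher and 12 lower. That is 6.17% and 7.41% called higher and 38.3% and 14.8% called lower, where 20.2% and 15.6% of all genes were called higher and 26.8% and 20.2% lower. Of 20 genes for chaperones and importers of ribosomal proteins, chaetocin at 12 h called 1 higher and 9 lower, with a median of -0.31 relative to the median gene, and chetomin 2 and 6, with -0.16, where 20.2% and 15.6% of all genes were called higher and 26.8% and 20.2% lower. RRS1, which loads the 5S particle into pre-60S subunits, was at 14.3 and 15.7 with chaetocin and 24.7 and 24.1 with chetomin, against 69.2 and 79.8 in vehicle cells (-2.24 ± 0.16, limma adjusted p = 0.000468, and -1.57 ± 0.17, adjusted p = 0.000562). GRWD1, a chaperone of RPL3, was at 36.3 and 35.5 with chaetocin and 42.4 and 40.4 with chetomin, against 73.3 and 90.6 in vehicle cells, and was called lower with both compounds at both times. HEATR3, which takes part in RPL5 import, was at 4.40 and 4.72 with chaetocin and 4.44 and 5.39 with chetomin, against 9.61 and 10.00 in vehicle cells, and was called lower with both. PDCD2, a chaperone of RPS2, was called higher with both, and its relative PDCD2L was called lower with chaetocin.

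Of 25 regulators of TOP mRNAs and of ribosomal protein genes, chaetocin at 12 h called 5 higher and 9 lower and chetomin 4 and 6. The numbers called higher were near the shares of all genes called higher, 20.2% and 15.6%. The shares called lower were 36.0% and 24.0%, where 26.8% and 20.2% of all genes were. All 5 called higher with chaetocin are named below, but of the 9 called lower only MYC and LARP1. MYC, an activator of ribosomal protein transcription, was at 55.1 and 43.4 with chaetocin and 52.5 and 41.4 with chetomin, against 164 and 174 in vehicle cells, lower by 1.77 ± 0.16 and 1.84 ± 0.17 on the log2 scale (limma adjusted p = 0.000699 and 0.000322). LARP1, the TOP-binding protein, named here for its role after its values were seen, was at 22.6 and 23.3 with chaetocin and 32.3 and 22.6 with chetomin, against 55.0 and 46.6 in vehicle cells (adjusted p = 0.00263 and 0.0156). The mTORC1 inhibitors SESN2 and DDIT4 were called higher with both at 12 h, DDIT4 at 142 and 137 with chaetocin and 192 and 202 with chetomin, against 52.2 and 69.9 in vehicle cells. At 5 h DDIT4 was called lower with chaetocin, at 34.1 and 38.8, and higher with chetomin, at 278 and 282, against 71.1 and 68.7 in vehicle cells. YY1, a transcription factor, was at 134 and 146 with chaetocin and 48.5 and 61.6 with chetomin, against 56.6 and 48.7 in vehicle cells, and was called higher with chaetocin (limma adjusted p = 0.000956). GABPA, an ETS-family factor, was called higher with both. RHEB, an activator of mTORC1, was called higher with both at 12 h and was at 111 and 127 with chaetocin and 144 and 157 with chetomin, against 65.1 and 45.8 in vehicle cells (adjusted p = 0.0057 and 0.00151). None of these lists had a gene called with either MeS compound against vehicle at either time, where limma called 0 genes in 3 of the 4 comparisons.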

How the data were processed

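RNA of 20 libraries was poly(A)-selected and made into directional libraries, per the labels' protocols. STAR 2.5.2b, RSEM 1.3.3, edgeR and GRCh38 are named in the submitters' processing notes, and the sources used here name no settings, annotation or strand option. The deposited signal per gene and library is scaled by length and library and is not a count. The authors' deposited log2 fold changes, mean CPM signals and q-values were used as an alternative only. From the steps between low values an effective library size could be recovered for 12 libraries (24.68 to 39.85, in units of 1e6 reads) but not for the 8 of chaetocin and chetomin, so no interval for counting error is given.

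Differences were tested with limma 3.58.1 (R 4.3.3) on log2(value + 1), with a trended prior, on the libraries of the groups compared, with vehicle added for direct pairs and both vehicle groups for the time comparison; p-values were adjusted over all genes tested. A log2 fold change understates low genes. The fits were also run on simulated data with independent noise for each gene. That setting lacks the shifts shared by many genes of a library seen here, so it does not bear on these calls. GC and length were medians over protein-coding GENCODE v29 transcripts, and start windows came from RefSeq. Ribosomal protein genes have many processed pseudogenes (62 such symbols are listed), and how RSEM split shared reads cannot be seen here. The members, gene lists and tests were chosen with earlier results of these data known. The genes described were a fixed set of well-known members, all paralogs, and in each comparison with vehicle the 5 called members with the biggest change each way among those without overlap (3 in direct and time comparisons). From the gene lists up to 4 with the biggest change were planned, and more are described in places. The alternatives were 2 other scalings, a pseudocount of 0.1, a minimum mean of 5, a shared spread, a replicate block (and, added after seeing the data, a crossed one), leaving out each library and the authors' table. With 2 libraries against 2, an exact permutation test cannot go below p = 0.333. The values of a few genes are not reported here.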

Additional observations from a re-analysis of the deposited data

Results flagged for a closer look

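The chaetocin effect on RPL3L differed between the times, by a test of the difference itself: it was 2.63 ± 0.31 larger at 12 h than at 5 h on the log2(value + 1) scale (limma adjusted p = 0.00202). The libraries held 10.99 and 10.07 with chaetocin at 12 h and 1.21 and 0.80 at 5 h, against 0.07 and 0.20 in vehicle at 12 h and 0.47 and a listed 0 at 5 h. With a pseudocount of 0.1 the difference was 3.37 and no longer passed (adjusted p = 0.104). Groups of 2 libraries are too small for a check of single outlying samples.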

How the results depend on the processing

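The shift at 12 h stayed positive for chaetocin and for chetomin, against vehicle and against their analogs, under every alternative run. Counts of called members moved, and the cause was not tested. The share of all genes called moved with the scaling too. It is given below for the 2 other scalings and the authors' table. For the remaining alternatives it is not given, so their counts do not tell a change in the members from one in all genes. By construction the shift is left unchanged by centring on the median gene, a shared spread and the replicate block, so these do not bear on it. Centring on the median gene called 43 members for chaetocin, 30 for chetomin and 36 for chaetocin against MeS-chaetocin at 12 h, and 1 for chetomin and 13 for chetomin against MeS-chetomin at 5 h. Of all genes it called 30.5% higher and 12.9% lower for chaetocin at 12 h, and 27.3% and 9.31% for chetomin. For chaetocin against MeS-chaetocin at 12 h it called 33.0% and 17.4%. At 5 h it called 11.4% and 5.76% for chetomin and 26.6% and 9.34% for chetomin against MeS-chetomin. Median-of-ratios scaling called 34 for chaetocin and 34 for chaetocin against MeS-chaetocin at 12 h. A spread shared by all libraries of a time called 2 for chaetocin at 5 h, 23 at 12 h and 52 for chetomin at 12 h. A minimum mean of 5 called 28 for chetomin at 12 h, 1 for chetomin against MeS-chetomin at 5 h, and 0 both for chaetocin against chetomin at 12 h and for the chaetocin time difference, with shifts of 0.48 for chaetocin and 0.44 for chaetocin against MeS-chaetocin at 12 h. A pseudocount of 0.1 called 0 in the chaetocin time difference. The authors' deposited table called 3 for chaetocin at 5 h, 68 at 12 h and 77 for chetomin at 12 h, and gave MeS-chetomin at 12 h a shift of -0.24. Of all genes it called 14.7% higher and 14.8% lower for chaetocin at 5 h. At 12 h it called 35.1% and 25.2% for chaetocin and 31.7% and 21.7% for chetomin.

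Same-numbered libraries deviated with correlations between -0.64 and 0.77 across genes. Each comes from 1 pair of libraries per group, so these values cannot show whether the numbers pair the samples. The replicate block called 1 for chaetocin and 4 for MeS-chetomin at 5 h, and 5 for chaetocin and 22 for chetomin at 12 h. Crossed pairing, added after seeing the data where that correlation was under -0.1, called 3 for chaetocin at 5 h, 28 at 12 h, and 0 for each MeS compound at 12 h. A crossing picked on a negative correlation narrows the spread by its choice, so these counts lend no support.

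Leaving out 1 library, with the lone sample assumed to vary like the other groups, gave shifts at 5 h of -0.05 to 0.56 (chaetocin), -0.20 to 0.45 (chetomin), -0.34 to 0.51 (MeS-chaetocin), -0.80 to -0.15 (MeS-chetomin), 0.01 to 0.32 (chaetocin against chetomin), -0.22 to 0.63 and 0.53 to 0.66 (chaetocin and chetomin against their analogs) and 0.12 to 1.00 (between the analogs). At 12 h these were, in the same order, 0.27 to 0.45, 0.40 to 0.67, -0.03 to 0.15, -0.14 to -0.03, -0.31 to -0.03, 0.19 to 0.35, 0.54 to 0.80 and 0.12 to 0.23. For the time differences they were -0.21 to 0.46 (chaetocin), 0.12 to 0.79 (chetomin), -0.41 to 0.42 (MeS-chaetocin) and 0.03 to 0.65 (MeS-chetomin). Members called ran at 5 h from 0 to 3 (chaetocin), 0 to 8 (chetomin), 0 to 18 (MeS-chetomin) and 1 to 62 (chetomin against MeS-chetomin). At 12 h they ran from 1 to 29 (chaetocin), 1 to 10 (chetomin), 0 to 2 (chaetocin against chetomin), 4 to 20 (chaetocin against MeS-chaetocin), 2 to 72 (chetomin against MeS-chetomin) and 0 to 12 (between the analogs), and from 0 to 1 in the chetomin time difference.

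Of 30 calls of named members, 8 held under every alternative that gave a value. Those 8 were RPL3L at 12 h against vehicle and against the analog for both compounds and at 5 h for chetomin against MeS-chetomin, RPL7L1 and RPS25 for chaetocin against MeS-chaetocin, and RPL26L1 for chetomin against MeS-chetomin at 12 h. The depth of the chaetocin and chetomin libraries was not recovered, so the counting error of low values such as those of RPL3L is unknown.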
